A study of Mus musculus with 49 samples.

Results

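Kruppel-like factors are zinc finger transcription factors that bind GC-rich and CACCC-type DNA and either activate or repress genes. The members described here are the 7 genes Klf2, Klf3, Klf4, Klf6, Klf7, Klf10 and Klf13, chosen by name and not by their values, with the 75 open chromatin peaks annotated to them. They were read from every library of a study of Elf4, an ETS-family transcription factor, in C57BL/6 mouse cells. The RNA tables list 14896 to 20214 genes each, and 86911 peaks were measured in all. All 7 members passed the filter on low values in each of the 5 RNA tables, and 45 of their 75 peaks passed that of the chromatin test.

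The RNA came from BMDM, which are macrophages grown from bone marrow over 7 days in the growth factor M-CSF, from naive CD4 T cells and from cultured Th17 cells. BMDM were wild type (WT) or Elf4 KO and were untreated or held for 4 h or 16 h with lipopolysaccharide (LPS, a component of bacterial walls, at 100 ng/ml), with 3 libraries per genotype and time. Untreated naive CD4 T cells formed one set of 4 libraries labelled Elf4 KO with 3 WT, and another of 3 libraries with Elf4 W250S, a single amino acid substitution, with 3 WT. Further T cells of both these genotypes spent 48 h in culture towards pathogenic Th17 cells, in IL-23, IL-1 beta and IL-6, or towards non-pathogenic ones, in TGF-beta and IL-6. Each genotype has 3 libraries in each of these cultures. ATAC-seq, which counts reads at open chromatin, covered 3 WT and 3 KO-labelled naive CD4 libraries. The ages of the mice, the extent of the Elf4 deletion and pooling of animals are not given in the sources used here, and nothing states that all libraries of a group came from separate animals, so p-values measure the spread between these libraries.

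Values are CPM, reads scaled to the depth of a library, and a difference is in log2(CPM + 1), tested with limma. A gene was called where p, adjusted by Benjamini and Hochberg's method over all genes tested in the table, was below 0.05. Group values are means ± SD. The steps between low values put a BMDM library at 10.9 to 15.9 M reads over the listed genes, and a T cell library at 23.4 to 37.7 M. Elf4 itself lay at 15.5 to 32.6 CPM in KO BMDM and at 64.6 to 134 CPM in WT BMDM over the 3 times. In naive cells it lay at 178 to 209 CPM in the libraries labelled KO and at 186 to 195 CPM in WT, so these are called the libraries labelled KO throughout. Macrophage markers were abundant in BMDM (the 7 genes summed to 12493 to 29826 CPM) and T cell markers in naive cells (7 genes, 1376 to 2074 CPM). All 6 Th17 markers were above 1 CPM in each non-pathogenic library and 5 or 6 of them in each pathogenic one. In bulk RNA, fewer cells of a type and less RNA per cell cannot be told apart.

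Among these genes, Klf2 is known for keeping naive T cells quiescent and for driving the homing receptors that let them circulate, and it is lost after activation. Klf4 restrains proliferation in T cells and promotes the differentiation of monocytes. ELF4 has been described as an activator of KLF4 and KLF2 in CD8 T cells, which makes their levels in Elf4-mutant cells a question of the design. Klf3 is a repressor that works through CtBP proteins. Klf6 supports inflammatory gene expression in macrophages, Klf10 is an early response gene of TGF-beta, and Klf13 is known as a late activator of the chemokine gene Ccl5 in T cells. Klf7 is best known from the development of neurons.

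In naive CD4 T cells Klf4 was the member with the widest differences, and these followed single libraries as much as genotype. In the KO-labelled set, Klf4 was 2.33, 3.26 and 0.386 CPM in WT libraries 1, 2 and 3. The libraries labelled KO held 13.9, 8.50, 9.73 and 0.532 CPM in order 1 to 4. Libraries 1 to 3 labelled KO thus lay above every WT library, while library 4 lay below WT 1 and 2, so the groups overlapped. The log2 difference was 1.37 ± 0.64 (SE), with an interval from -0.02 to 2.76, and it did not pass (limma, adjusted p = 0.214). The count of members called was 0 of 7, where 8.03% of all 12904 genes tested passed. At an unadjusted p below 0.05 there were also 0 members, and 3140 genes. Without KO-labelled replicate 4 the same difference was 2.09 (adjusted p = 0.00228), and without WT replicate 3 it was 0.88 (adjusted p = 0.504).

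With W250S, Klf4 rose. WT replicates 1, 2 and 3 held 0.644, 3.26 and 1.31 CPM, and W250S replicates 1, 2 and 3 held 3.03, 6.39 and 6.02 CPM. W250S replicate 1 was lower than WT replicate 2, so these groups overlapped as well. The log2 difference was 1.23 ± 0.26 (SE; limma, adjusted p = 0.0082), the single call among 7 members, where 4.16% of 12397 genes passed. It was not called after median-ratio scaling (1.17, adjusted p = 0.0743) or without W250S replicate 2 (1.07, adjusted p = 0.151). The difference of the KO-labelled from the W250S effect on Klf4 was 0.13 with an interval from -1.62 to 1.89 (adjusted p = 0.99). In that test 0 of 7 members and 0% of 12230 genes were called; at an unadjusted p below 0.05 there were 0 members and 623 genes. The interval is too wide to say that the effects were alike. By the steps of the tables, Klf4 rested on 22 to 784 reads a library, so the lowest values are measured least well.

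**Figure D1:**
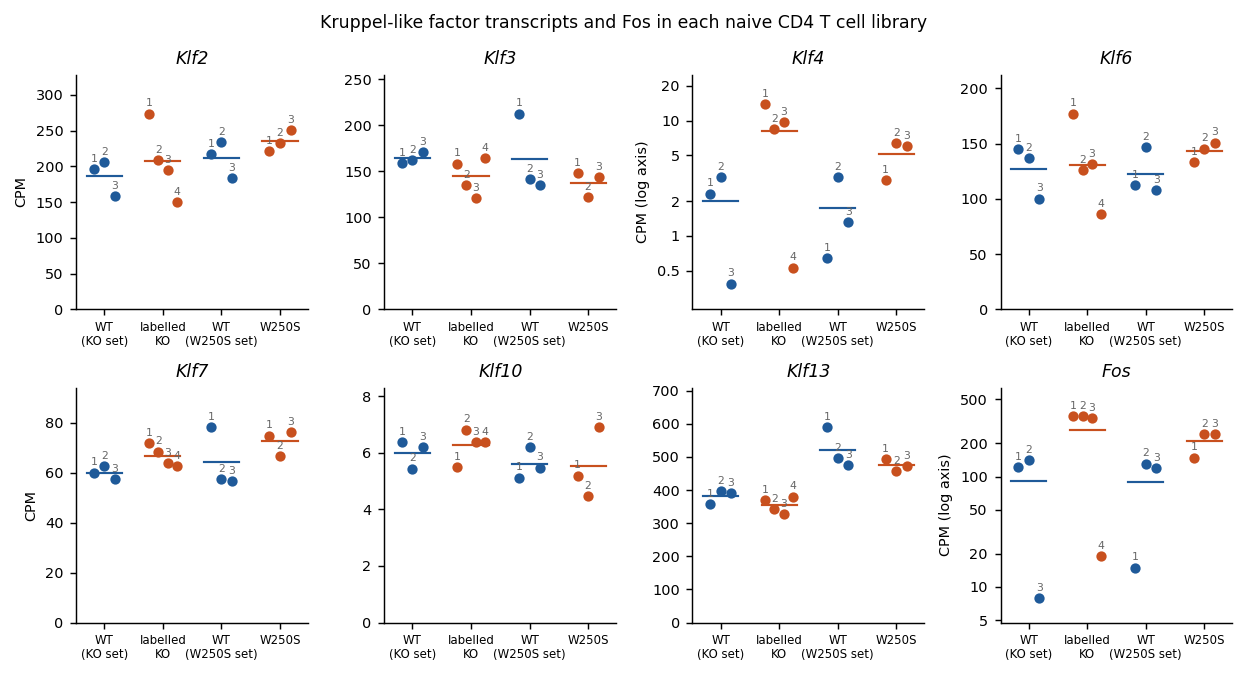
CPM of the 7 members and of Fos in each naive CD4 library, with blue points for WT, orange points for mutant or KO-labelled libraries, the replicate number beside each point and a line at the group mean; the Klf4 and Fos axes are logarithmic. WT 3 and KO-labelled 4 of the KO set and WT 1 of the W250S set are low in Fos, at 7.92 to 18.9 CPM, and are the 3 libraries lowest in Klf4, at 0.386 to 0.644 CPM.

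The libraries low in Klf4 were also low in the immediate early gene Fos, a gene that cells switch on within minutes of a stimulus. Fos was 122, 140.1 and 7.92 CPM in WT and 353, 350.1, 341 and 18.9 CPM in the libraries labelled KO. In the W250S set it was 14.9, 131 and 119 CPM in WT and 148, 243 and 242 CPM in W250S. WT 3 and KO-labelled 4 of the first set and WT 1 of the second were far below the others of their groups. Across the 13 naive libraries, each centred on the mean of its table, the genes most like Klf4 were Fosb (Pearson r = 0.97), the NF-kB inhibitor gene Tnfaip3 (0.969) and the orphan receptor gene Nr4a1 (0.947). The same r with Fos was 0.926 for Klf4, 0.773 for Klf6, 0.704 for Klf2, 0.18 for Klf7 and 0.0445 for Klf10. It was negative for Klf3 (-0.732) and Klf13 (-0.749). These correlations are descriptions over libraries that share tables and groups. How they go with the time at which cells were taken from a mouse was not tested.

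Of the 21 immediate early genes tested, 0 were called in the KO-labelled set, with a median of 0.15 against 0.005 over all genes. In the W250S set 2 rose and none fell, with a median of 0.20 against 0.074: Fosb by 2.00 (adjusted p = 0.0284) and Fos by 1.71 (adjusted p = 0.0494). Leaving out the 3 libraries lowest in Fos, an alternative chosen after seeing the data and on values that run with Klf4, gave a Klf4 difference of 1.61 (adjusted p = 0.00013) in the KO-labelled set and 0.92 (adjusted p = 0.00693) in the W250S set. With them left out Klf4 was the 1 member called in each set. The part of the immediate early genes in the Klf4 difference was not tested.

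Klf2, the quiescence and homing factor, was 196, 206 and 158 CPM in WT and 274, 208, 195 and 150.4 CPM in the libraries labelled KO. With W250S it was 222, 233 and 250.4 CPM against 217, 234 and 183 CPM in WT. Both pairs of groups overlapped, and neither difference passed (0.12 ± 0.16 and 0.16 ± 0.11, SE; adjusted p = 0.692 and 0.536). The intervals, -0.23 to 0.48 and -0.08 to 0.40, leave room for moderate changes either way. Of 7 homing genes tested in each naive set, among them genes known as Klf2 targets such as S1pr1, 0 were called. Of 13 quiescence genes and genes upstream of Klf2, 1 fell in the KO-labelled set (Slfn2, which guards T cell quiescence, by 0.30 log2, adjusted p = 0.0396) and none was called with W250S. Over all genes 8.03% were called in the KO-labelled set and 4.16% with W250S, so 1 of 13 lies near the share of all genes.

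Klf3, the CtBP-dependent repressor, lay between 121 and 213 CPM over the 13 naive libraries, with the highest value in WT replicate 1 of the W250S set, one of the libraries low in Fos. Its differences were -0.19 and -0.22. Klf13 was 381 ± 21.4 (n = 3) against 355 ± 23.9 CPM (n = 4) in WT and KO-labelled cells, and 521 ± 61.4 against 474 ± 17.6 CPM in WT and W250S cells (n = 3 each). Klf6 was 127 ± 23.8 against 130.4 ± 37.2 CPM and 122 ± 21.3 against 143 ± 8.90 CPM in the same order. Klf7 was 60.1 ± 2.61 against 66.8 ± 4.27 CPM in the KO-labelled set, where each KO-labelled library lay above each WT library, and the difference of 0.15 did not pass (adjusted p = 0.21). Klf10 lay at 4.47 to 6.92 CPM in all 13 libraries. None of these passed in either set. Their levels are given side by side across the sets, which were scaled separately.

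Elsewhere in the family Sp6, a zinc finger factor related to the Kruppel-like factors, rose in both naive sets. It was 5.58 ± 0.193 CPM in WT and 14.3 ± 4.50 CPM in the libraries labelled KO (1.18, adjusted p = 0.00155), and 5.44 ± 2.00 against 18.6 ± 5.92 CPM with W250S (1.61, adjusted p = 4.9e-05). No value overlapped between groups in either set. It was the 1 gene called among 8 other Kruppel-like and Sp genes tested in each. Markers of other cells were scarce: the myeloid markers, of which 5 or 6 of 7 are listed, summed to at most 2.48 CPM in WT and 3.94 CPM in KO-labelled libraries, and to at most 1.95 and 0.962 CPM in WT and W250S. Erythroid markers summed to 30.4 CPM in the highest KO-labelled library and to at most 3.80 CPM in every library of the other naive groups. The 9 markers of activated or memory T cells summed to 45.3 to 51.6 and 55.4 to 63.1 CPM in WT and KO-labelled libraries and to 66.2 to 69.6 and 78.1 to 97.8 CPM in WT and W250S, higher in each mutant group. Their part in the Klf4 and Sp6 differences was not tested.

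Open chromatin at the start of Klf4 was read in the same cell type, in separate libraries. The largest Klf4 peak, at chr4:55532396-55533401 (mm10), which the authors' table annotates as the transcription start, holds 99.1% of the counts over the 3 Klf4 peaks. In CPM of the reads in peaks, it held 79.3, 81.7 and 68.3 CPM in WT and 117, 107 and 110.2 CPM in the libraries labelled KO. The groups did not overlap, and the means were 76.4 ± 7.18 and 111 ± 5.18 (n = 3 each). The log2 difference was 0.52 ± 0.09 (SE; edgeR's quasi-likelihood test, unadjusted p = 5.36e-05), and it did not pass over all 47000 peaks tested (adjusted p = 0.103). DESeq2 called it (0.52, adjusted p = 0.00258), as did edgeR with no filter on low counts (adjusted p = 0.0213), and the adjusted p was 0.535 with the replicate number as a block. Over all member peaks 0 of 45 were called, where 0.00851% of all peaks tested passed; 8 of the 45 (17.8%) and 9.87% of all had an unadjusted p below 0.05.

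At the start of Klf3 the largest peak, at chr5:64802812-64803819, held 88.8, 79.9 and 69.4 CPM in WT and 102, 97.9 and 104 in the libraries labelled KO. These groups did not overlap either, and the difference of 0.33 ± 0.10 (SE) did not pass (edgeR, unadjusted p = 0.00631, adjusted p = 0.345). Of the 8 Klf3 peaks tested 2 were higher and 6 lower in KO-labelled libraries. The lower ones include chr5:64806037-64806390 (-0.51, edgeR, unadjusted p = 0.0122) and chr5:64812650-64812949 (-0.98, unadjusted p = 0.00931), neither of them called. Without WT replicate 1 the start peaks of both Klf4 (0.61, edgeR, adjusted p = 9.35e-06) and Klf3 (0.48, adjusted p = 0.000146) were called, with 4 member peaks called in all. This was the 1 fit of 6 with a library left out that called either start peak. Over the 6 fits the difference ran from 0.41 to 0.61 at Klf4 and from 0.20 to 0.48 at Klf3. The adjusted p ran up to 0.767 at Klf4 and 0.806 at Klf3. At the start of Klf2 the peak chr8:72318570-72319677 held 160.4, 159.7 and 191 CPM in WT and 167, 176 and 163 in KO-labelled libraries, with overlapping groups and a difference of -0.04 (adjusted p = 0.9). The main start peaks of Klf6, Klf7, Klf10 and Klf13 differed by -0.12, -0.09, 0.06 and -0.05, with an adjusted p of at least 0.564. At Klf6 each KO-labelled library (123.1 to 128.1 CPM) lay below each WT library (129.5 to 140.6 CPM). Of the 45 peaks tested, 13 were higher and 32 lower in KO-labelled libraries, with a median of -0.13 against -0.007 over all peaks. The start peaks of 24 immediate early genes had a median of -0.05, and 6 were higher. The KO-labelled libraries were deeper, with 9.61 to 13.7 M reads in peaks against 6.19 to 9.71 M in WT.

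**Figure D2:**
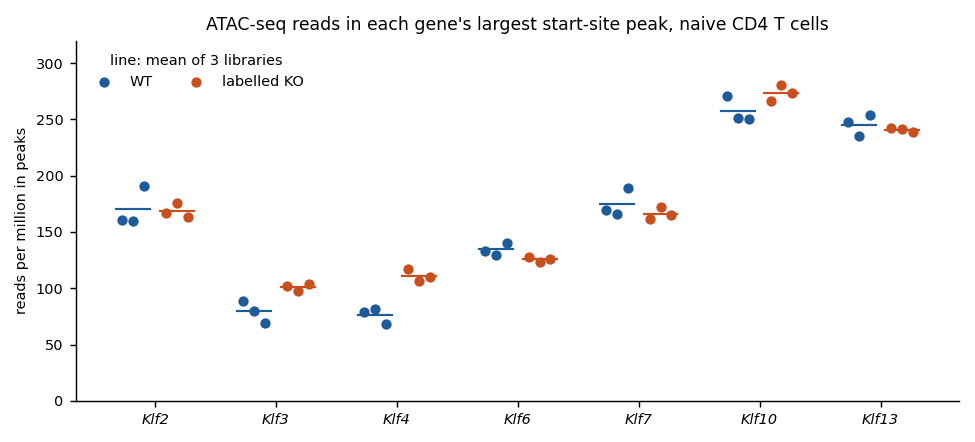
CPM of the largest start-site peak of each member in 6 naive CD4 ATAC-seq libraries, blue for WT and orange for libraries labelled KO, with a line at the mean of 3 libraries. At Klf4 (68.3 to 81.7 against 107 to 117) and Klf3 (69.4 to 88.8 against 97.9 to 104) the groups do not overlap. At Klf6 they do not overlap either, with KO-labelled libraries lower (129.5 to 140.6 against 123.1 to 128.1).

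The promoter sequences under these peaks are shown for Klf4 and Klf3, which differed most when each member's largest start peak is compared, and for Klf2, whose start peak was level. Each is 300 bases of RefSeq sequence (GRCm38.p6), from 250 bases before to 50 after the annotated start, written 5′ to 3′ on the gene's strand. All 300 bases of each lie inside the peak named above. Capitals mark matches, on either strand, to the motifs searched. These were CCGGAA for an ETS site longer than the GGAA core, CACCC for the Kruppel-like box and TGACG for a cyclic AMP response half-site. The others were GTAAACA for a FOXO site, the serum response element and the MEF2 site. No match overlaps another.
Klf4, chr4:55532426-55532725, minus strand: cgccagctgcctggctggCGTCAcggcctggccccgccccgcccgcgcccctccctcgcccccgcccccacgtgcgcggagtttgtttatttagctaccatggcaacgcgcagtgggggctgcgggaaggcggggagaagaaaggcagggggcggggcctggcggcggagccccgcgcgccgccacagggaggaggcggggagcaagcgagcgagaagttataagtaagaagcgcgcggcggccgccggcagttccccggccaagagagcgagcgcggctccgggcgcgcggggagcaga
Klf3, chr5:64803271-64803570, plus strand: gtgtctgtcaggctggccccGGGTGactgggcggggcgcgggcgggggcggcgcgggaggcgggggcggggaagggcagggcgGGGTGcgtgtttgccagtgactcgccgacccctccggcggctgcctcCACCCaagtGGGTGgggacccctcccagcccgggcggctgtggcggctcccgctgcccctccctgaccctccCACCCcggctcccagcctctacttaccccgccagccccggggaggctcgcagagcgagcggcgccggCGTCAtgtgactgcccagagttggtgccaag
Klf2, chr8:72318812-72319111, plus strand: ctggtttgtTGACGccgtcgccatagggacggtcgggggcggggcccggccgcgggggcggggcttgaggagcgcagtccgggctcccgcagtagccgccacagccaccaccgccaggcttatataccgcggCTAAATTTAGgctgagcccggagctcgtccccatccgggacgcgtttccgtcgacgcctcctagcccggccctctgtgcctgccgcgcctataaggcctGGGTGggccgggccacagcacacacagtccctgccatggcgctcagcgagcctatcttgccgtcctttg

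The windows are rich in G and C (74.3% in Klf4, 76.7% in Klf3 and 69.3% in Klf2, against a median of 52.7% over 32841 promoters). The Klf4 window held 1 match, to TGACG, 232 bases before the start; this motif occurs in 20.8% of all promoters. The Klf3 window held 5 matches to CACCC, a motif present in 57.5% of promoters, and 1 to TGACG. The Klf2 window held a MEF2 site 118 bases before the start, which 3.19% of promoters hold, and 1 match each to TGACG and CACCC. Of the 6 members found in the promoter table, 4 held TGACG and 4 held CACCC. None of the 6 held CCGGAA, which 14.9% of all promoters hold. The shorter GGAA core was not searched, and each window shown holds it on one strand or the other. The FOXO site and the serum response element, in 3.65% and 1.63% of all promoters, were also in none. These are descriptions of letters in the window.

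In Th17 cells the members sat at other levels than in naive cells, as the separately scaled tables show side by side without a test. Klf2 lay at 183 to 250.4 CPM in the naive W250S set, at 2.11 to 5.60 CPM in non-pathogenic and at 1.94 to 3.66 CPM in pathogenic Th17 cells. Klf3 lay at 122 to 213 CPM in naive cells and at 7.00 to 11.2 and 7.00 to 9.04 CPM in the cultures. Klf13 lay at 457 to 590.4 CPM, then 147 to 197 and 139 to 179 CPM. For these genes each naive library was above each cultured one. Klf10 lay lower in naive cells (4.47 to 6.92 CPM) than in non-pathogenic (9.74 to 13.6) or pathogenic cells (9.17 to 11.3 CPM), and Klf6 went from 108 to 151 CPM to 160 to 229 and 172 to 216 CPM. Klf4 lay at 2.80 to 3.85 CPM over all 12 Th17 libraries, inside its range in naive cells. Between the cultures, the ranges of each of the 7 members overlapped when WT and W250S libraries were pooled. Within a genotype some were apart. In WT, pathogenic cells held less Klf2 (2.93 to 3.66 against 4.06 to 5.60 CPM) and more Klf7 (53.7 to 58.1 against 46.1 to 51.8 CPM). In W250S, they held less Klf3 (7.00 to 8.04 against 9.32 to 11.2 CPM) and less Klf10 (10.2 to 11.3 against 12.5 to 13.6 CPM). The remaining members overlapped in each genotype.

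**Figure D3:**
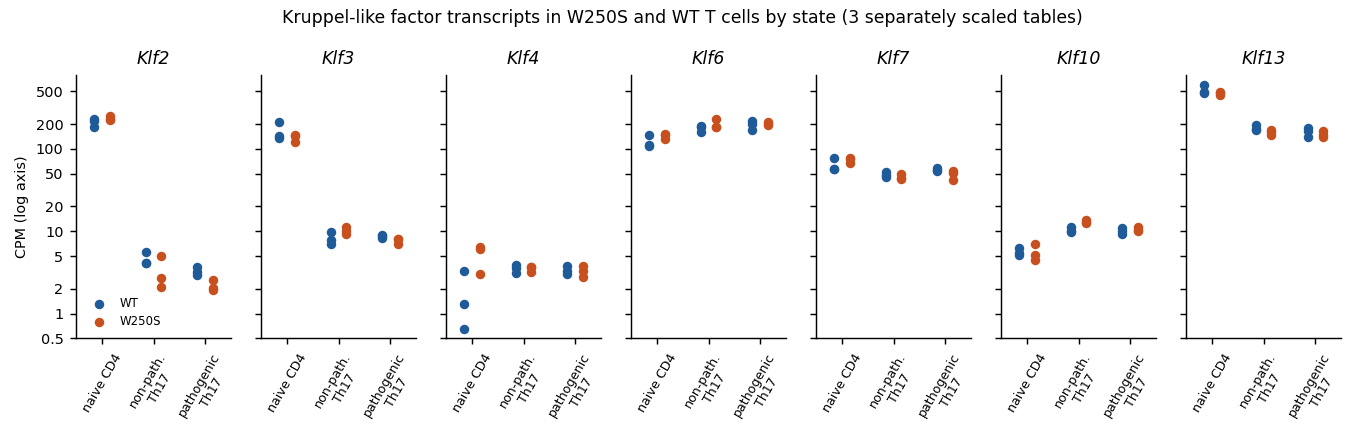
CPM of the members on a logarithmic axis in naive, non-pathogenic Th17 and pathogenic Th17 cells of the W250S set, with 3 WT (blue) and 3 W250S (orange) libraries each; the 3 states come from separately scaled tables. Klf2 and Klf3 are at 122 CPM or more in every naive library and at 11.2 CPM or less in every Th17 library.

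W250S shifted few members in Th17 cells. In non-pathogenic cells Klf10, the TGF-beta early response gene, rose: WT libraries held 9.74, 10.0 and 11.3 CPM and W250S libraries 12.5, 13.0 and 13.6 CPM, with no overlap. The log2 difference was 0.30 ± 0.08 (SE; limma, adjusted p = 0.0476), the 1 call among 7 members, where 7.06% of 12821 genes passed. The call was lost when any 1 of the 6 libraries was left out (0.27 to 0.37, adjusted p = 0.0566 to 0.168) and with no filter on low values (adjusted p = 0.0761). In pathogenic cells Klf10 was 10.0 ± 0.835 in WT and 10.6 ± 0.561 CPM in W250S (0.08, adjusted p = 0.669). Of 11 other TGF-beta response genes tested, 4 rose in non-pathogenic cells, among them Id3 (0.64), the inhibitory SMAD gene Smad7 (0.30) and the SMAD repressor gene Ski (0.23), with a median of 0.17 against 0.036 over all genes; 1 rose in pathogenic cells, Id3 (0.56, adjusted p = 0.00188).

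Klf2 was lower in W250S cells of both cultures without passing. In pathogenic cells WT libraries held 3.66, 3.16 and 2.93 CPM and W250S libraries 2.05, 2.57 and 1.94 CPM, which did not overlap. The difference was -0.42 ± 0.11 (SE, limma, adjusted p = 0.0854), and 0 of 7 members were called, where 2.06% of 12794 genes passed. At an unadjusted p below 0.05 there were 2 members, Klf2 and Klf7, and 2468 genes. In non-pathogenic cells Klf2 was 4.16, 4.06 and 5.60 CPM in WT and 2.11, 2.68 and 5.04 CPM in W250S, with overlapping groups (-0.44 ± 0.20, adjusted p = 0.19; -0.72 and adjusted p = 0.0333 without the highest W250S library). Klf3 was 8.21 ± 1.37 in WT and 10.2 ± 0.926 CPM in W250S non-pathogenic cells (0.29, adjusted p = 0.129; 0.40 and adjusted p = 0.0228 without the highest WT library), and 8.72 ± 0.391 and 7.68 ± 0.597 CPM in pathogenic cells (-0.16, adjusted p = 0.323). The W250S effect on Klf3 differed between cultures by -0.45 ± 0.14 (SE; adjusted p = 0.527), and 0 of 7 members and 0% of 12642 genes were called in that test; at an unadjusted p below 0.05 there were 1 member and 1195 genes. Klf4, Klf6, Klf7 and Klf13 did not pass in either culture. Summed stromal and Th17 markers were higher in each W250S library than in each WT library of both cultures. Of 9 stromal markers, 3 were listed for non-pathogenic and 5 for pathogenic cells. The stromal sum was almost all Lum, the only one of them above 1 CPM in these libraries. Lum lay at 3.66 to 9.92 CPM in non-pathogenic and 19.7 to 46.9 CPM in pathogenic libraries. Stromal markers summed to 3.94 to 5.93 CPM in WT and 8.56 to 10.4 CPM in W250S non-pathogenic libraries, and to 19.9 to 29.2 and 39.2 to 47.7 CPM in pathogenic ones. Th17 markers summed to 90.8 to 118 CPM in WT and 141 to 182 CPM in W250S non-pathogenic libraries, and to 68.3 to 86.7 and 94.8 to 138 CPM in pathogenic ones. Their part in these differences was not tested.

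In WT macrophages LPS pulled the members apart. At 4 h Klf10 fell from 47.9, 48.5 and 46.2 CPM to 2.51, 4.25 and 3.27 CPM and Klf2 from 11.9, 16.2 and 15.3 CPM to 1.73, 2.66 and 3.04 CPM. Klf6 rose from 259, 253 and 249 CPM to 1113, 1196 and 1070.0 CPM. Klf7 rose from 1.28, 1.83 and 1.60 CPM to 15.7, 13.1 and 18.3 CPM. For these 4 genes the libraries of the 2 times did not overlap. The log2 differences were -3.50 ± 0.16 (Klf10), -2.16 ± 0.16 (Klf2), 2.15 ± 0.10 (Klf6) and 2.69 ± 0.17 (Klf7; SE, limma, adjusted p of at most 4.32e-10). Of the 7 members 6 were called, 3 higher and 3 lower. Over all 12058 genes tested 86.8% were called, 15.6% higher and 71.3% lower, with a median of -0.81; after median-ratio scaling 4250 genes were higher and 4503 lower, and the median was -0.03.

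Against that shift the smaller changes depend on the scaling. Klf3 went from 76.4 ± 1.47 to 113 ± 3.26 CPM (0.56, and 1.46 after median-ratio scaling). Klf13 fell by 0.63 on the log2 scale, from 124 ± 6.26 to 79.5 ± 5.34 CPM, but rose by 0.27 after median-ratio scaling (adjusted p = 0.00753). Klf4, at 9.80 ± 0.0847 and 9.67 ± 0.900 CPM, differed by -0.02 (adjusted p = 0.888) and rose by 0.81 after that scaling (adjusted p = 3.42e-05). Of 9 other Kruppel-like and Sp genes tested, 1 rose, Klf8 (3.27), and 7 fell, among them Klf16 (-2.60), Klf11 (-2.57) and Sp1 (-1.76). Of 14 quiescence genes and genes upstream of Klf2, 10 fell and 3 rose, with a median of -1.61; the forkhead factor gene Foxo3 fell by 4.27 and Mef2d by 3.12 on the log2 scale. Of 14 TGF-beta response genes 11 fell and 2 rose, with a median of -1.27, and of 25 immediate early genes 14 rose and 9 fell, with a median of 0.74. Over all genes 71.3% fell and 15.6% rose, with a median of -0.81. The falls among the other family, quiescence and TGF-beta response genes thus lie near the share of all genes. These list counts, medians and differences are in CPM without median-ratio scaling.

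By 16 h Klf10 had risen again to 37.6, 37.7 and 40.9 CPM, a log2 difference from 4 h of 3.21 ± 0.16 (SE; adjusted p = 5.91e-12). Each of these libraries lay below each untreated one. The difference from 0 h, -0.29, did not pass in the model of all macrophage libraries (adjusted p = 0.108) and passed in a fit to the groups compared alone (adjusted p = 0.00142); after median-ratio scaling it was 0.16 (adjusted p = 0.376). Klf2 had recovered in part, at 4.55, 5.94 and 4.63 CPM, still below each untreated library (-1.35, adjusted p = 4.14e-07). Klf6, at 595, 580.2 and 569.9 CPM, and Klf7, at 6.96, 7.59 and 8.28 CPM, lay between their levels at 0 h and 4 h (1.19 and 1.75 above 0 h). Klf4 fell below its level at 0 h, to 4.97, 6.93 and 7.46 CPM (-0.55, adjusted p = 0.0013); after median-ratio scaling the difference was -0.14 and was not called (adjusted p = 0.384). Klf3 was 115 ± 9.57 CPM (0.58 above 0 h). From 4 h to 16 h it differed by 0.02 in CPM and fell by 0.42 after median-ratio scaling (adjusted p = 0.0016). Klf13 was 97.3 ± 7.12 CPM, -0.34 from 0 h in CPM and 0.12 without a call after that scaling. At 16 h against 0 h 3 members were higher and 3 lower, where 74.8% of genes were called (18.3% higher, 56.5% lower, median -0.41; 4036 and 4085 genes after median-ratio scaling). From 4 h to 16 h 3 were higher and 3 lower, where 73.2% of genes were called (51% and 22.1%, median 0.35; 3982 and 4409 genes after that scaling).

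**Figure D4:**
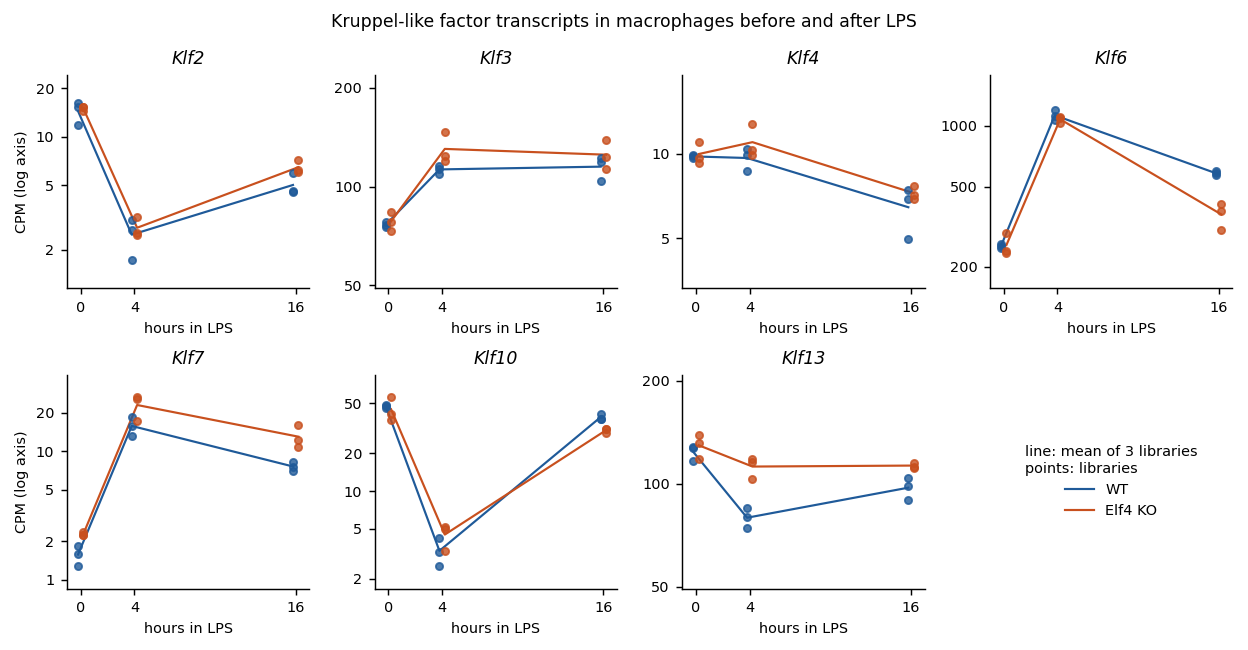
CPM of the 7 members on logarithmic axes at 0, 4 and 16 hours of LPS in WT (blue) and Elf4 KO (orange) macrophages, with a point for each library and a line through the means of 3. Klf10 and Klf2 dip at 4 h in both genotypes, Klf6 and Klf7 peak there, and Klf6 at 16 h lies at 305 to 409 CPM in KO and 569.9 to 595 CPM in WT.

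KO macrophages followed the same course in most members. At 4 h against 0 h 3 members were higher and 3 lower, where 86.4% of genes were called (15.6% higher and 70.8% lower). At 16 h against 0 h 3 were higher and 4 lower, where 67.9% were called (17.8% and 50.1%), and from 4 h to 16 h 2 were higher and 3 lower, where 75.4% were called (55.7% and 19.6%). After median-ratio scaling the higher and lower genes numbered 4197 and 4497 at 4 h against 0 h, 3765 and 3548 at 16 h against 0 h, and 4115 and 4217 at 16 h against 4 h. At 16 h against 0 h Klf4 (-0.09, adjusted p = 0.585) and Klf10 (-0.17, adjusted p = 0.366) lost their calls with that scaling, and Klf13 turned to 0.16 (adjusted p = 0.102). Klf4 and Klf10 also lost them without KO 0 h replicate 1 (adjusted p = 0.0544 and 0.0608), and Klf13 without any 1 of the other 5 libraries (adjusted p = 0.0516 to 0.14). Klf10 fell by 3.05 and Klf2 by 2.10 on the log2 scale at 4 h, and Klf6 and Klf7 rose by 2.07 and 2.84. Klf13 fell by 0.20 (adjusted p = 0.0217) and rose by 0.65 after median-ratio scaling. Over the 18 BMDM libraries the genes most like Klf6 were Samd9l, Cmpk2 and Rnf31 (r = 0.996, 0.996 and 0.993), and those most like Klf7 were Maff, Dusp16 and Samsn1 (0.983, 0.981 and 0.98). The genes most like Klf2 were Rfx7 and Gigyf2 (0.99 each). These values share the 3 times and are descriptions.

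Klf6 was the member whose genotype difference arose late. Untreated KO cells held 240.4, 235 and 293 CPM and WT cells 259, 253 and 249 CPM, and at 4 h KO cells held 1098, 1027 and 1107 CPM, overlapping with WT at both times (0.01 and -0.06 log2). At 16 h KO cells held 409, 376 and 305 CPM, each below each WT library. The difference was -0.69 ± 0.10 (SE; limma, adjusted p = 0.000118). The KO effect on Klf6 differed between 16 h and 0 h by -0.69 ± 0.14 (SE, adjusted p = 0.00876) and between 16 h and 4 h by -0.62 ± 0.14 (adjusted p = 0.0187). It was the 1 member called in each of these tests, where 6.45% and 4.06% of genes passed, and the second call was lost without WT 4 h replicate 3 (adjusted p = 0.0526) or WT 16 h replicate 1 (adjusted p = 0.0517). In the change of the KO effect from 0 h to 4 h, 0 of 7 members and 0.00829% of genes were called; 1 member and 874 genes had an unadjusted p below 0.05.

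Klf7 lay higher in KO cells at each time. Untreated KO cells held 2.36, 2.24 and 2.23 CPM, each above WT, without passing (0.35, adjusted p = 0.5). At 4 h KO cells held 26.2, 17.2 and 25.3 CPM, overlapping with WT (0.50 ± 0.17, adjusted p = 0.107; 0.69 and adjusted p = 0.034 without KO replicate 2). At 16 h KO cells held 10.9, 15.9 and 12.2 CPM, each above WT, and the difference passed (0.69 ± 0.17, adjusted p = 0.00601; after median-ratio scaling 0.58, adjusted p = 0.0216). The change of the KO effect from 0 h to 16 h did not pass (0.33 ± 0.24, adjusted p = 0.419).

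Klf13 lay higher in KO cells at 4 h, at 103, 116 and 118 CPM against 79.7, 74.1 and 84.8 CPM in WT, with no overlap (0.49 ± 0.08, adjusted p = 0.00251). This was the 1 member called at 4 h, where 4.19% of genes passed. At 16 h it was 112, 115 and 111 CPM against 89.6, 98.7 and 104 CPM, again without overlap (0.21 ± 0.08, adjusted p = 0.0459). This call was lost without any 1 library other than WT replicate 3 (0.16 to 0.26, adjusted p = 0.0417 to 0.196 over the 6), and it was not called after median-ratio scaling (0.10, adjusted p = 0.407), with which the median of all genes moved from 0.12 to 0.02. Klf10 at 16 h was 31.4, 31.4 and 28.7 CPM in KO and 37.6, 37.7 and 40.9 CPM in WT, without overlap (-0.34 ± 0.16, adjusted p = 0.116); median-ratio scaling gave -0.45 (adjusted p = 0.0442). Klf2, Klf3 and Klf4 did not pass at any time. Klf2 at 16 h lay at 6.08 to 7.18 CPM in KO and 4.55 to 5.94 CPM in WT, without overlap (0.32 ± 0.16, limma, adjusted p = 0.134). Klf3 at 4 h lay at 120 to 147 CPM in KO and 109 to 116 CPM in WT, also without overlap (0.20 ± 0.09, adjusted p = 0.235). After median-ratio scaling these differences were 0.21 (adjusted p = 0.306) and 0.14 (adjusted p = 0.507). Klf4 was 7.24 ± 0.414 in KO and 6.45 ± 1.31 CPM in WT at 16 h, and the interval of its difference ran from -0.12 to 0.44.

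Of the 7 members, 0 were called at 0 h (0.44% of genes; 1 member and 1205 genes at an unadjusted p below 0.05), 1 at 4 h and 3 at 16 h (30.5%): Klf7 and Klf13 higher and Klf6 lower, where 20.9% of genes were higher and 9.65% lower (2520 and 1163 genes; 1504 and 1687 after median-ratio scaling). The share at 16 h, 3 of 7, lies near that of all genes. Of 9 other family genes 1 was called at 4 h, Klf8, at 27.8 ± 3.30 in KO and 46.1 ± 1.48 CPM in WT (-0.72, adjusted p = 0.0405), and 1 at 16 h, Klf9, at 5.73 ± 1.98 against 2.91 ± 0.770 CPM (0.76, adjusted p = 0.0224). Of 13 macrophage genes linked to these factors 6 fell and 2 rose at 16 h, with Nos2 at -1.13, Ccl2 at -1.02, Tnf at -0.71 and Ptgs2 at -0.70, around a median of -0.04 against 0.12 over all genes. Of 25 immediate early genes 7 fell and 2 rose, among them Dusp1 (-0.86) and Zfp36 (-0.80). Stromal markers ranged higher in KO libraries, but the genotypes overlapped at each time. The 9 genes summed to 451 to 1220 CPM in WT and 624 to 3355 CPM in KO libraries over the 3 times, highest in KO replicate 2 at each time. At 16 h they summed to 658 to 1220 CPM in WT and 1063 to 3355 CPM in KO. Without KO replicate 2 at 16 h Klf6 differed by -0.72 (adjusted p = 0.000542) and Klf7 by 0.54 (adjusted p = 0.0385). At 16 h the 7 macrophage markers summed to 18871 to 20289 CPM in WT and 24130 to 29826 CPM in KO, and 7 myeloid markers to 14522 to 15484 and 19410 to 24698 CPM. The part of these stromal, macrophage and myeloid markers in the differences at 16 h was not tested.

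**Figure D5:**
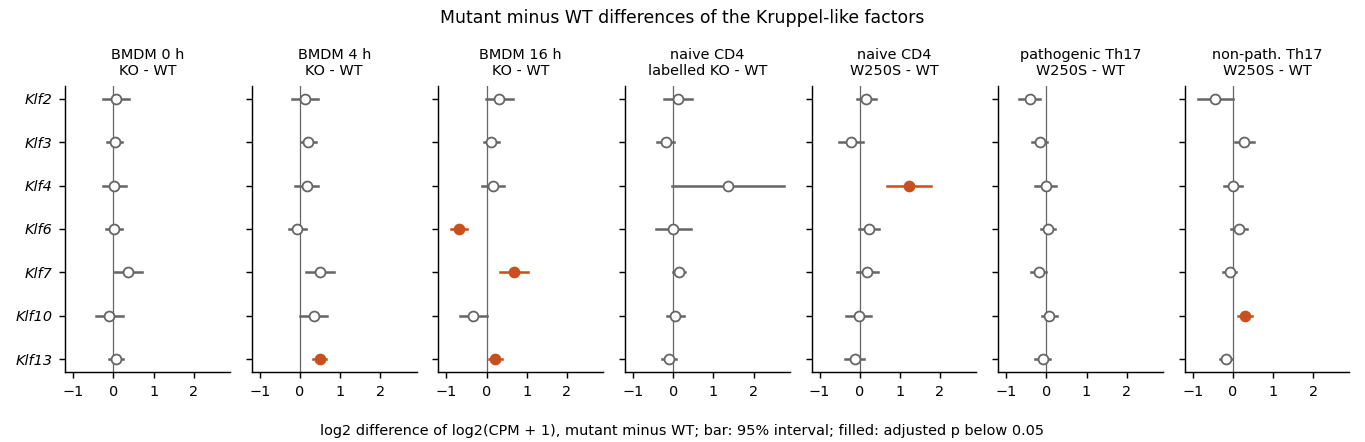
Log2 difference of log2(CPM + 1) between mutant and WT for each member in 7 comparisons, with bars for the 95% interval and filled orange points for an adjusted p below 0.05. The called points are Klf13 at 4 h, Klf6, Klf7 and Klf13 at 16 h in macrophages, Klf4 in W250S naive cells and Klf10 in W250S non-pathogenic Th17 cells.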

How the data were processed

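The submitters' processing notes name Partek 10.0.21.0411, BWA, Bowtie2, MACS2 and DESeq2 without their roles, and mm10 as the build. Values of RNA are the CPM that the authors deposited, as the file headers name them. For chromatin the authors deposited expected counts (reads per peak, a few not whole) in 1 shared set of 86911 peaks with a gene annotation. Listed genes sum to 472848 to 543838 CPM in T cell libraries and 950599 to 954161 in BMDM, so levels are not set across tables by test. Peak starts were raised by 1, since adjoining peaks share a boundary.

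Tests on log2(CPM + 1) used limma 3.58.1 (two-sided, variance trend on) and kept genes that reach 1 CPM in 3 or more libraries. All 18 BMDM libraries entered a single model, so their p-values share 1 spread over all times, and each T cell table alone. Same-numbered BMDM libraries of a genotype correlated across times (r = 0.0203 to 0.568 over 18 pairs), and this model treats them as independent. With genotype and number as a replicate block across times, both changes of the KO effect on Klf6 stayed called. Rounded ATAC-seq counts were tested with edgeR 4.0.16 (TMM, filterByExpr, glmQLFTest). Scripts were tested on simulated data. Alternatives were pseudocount 0.1, no filter, median-ratio scaling, DESeq2 1.42.0 and other tools for the peaks, replicate blocks and leaving out each library. Leaving out the 3 naive libraries lowest in Fos was added after seeing the data. Replicate numbers came from the sample titles. In the naive W250S set same-numbered libraries varied together (r = 0.111 to 0.326 over 3 pairs), which met the rule of over 0.1 for pairing; the block changed no call on a member there. Th17 column numbers could not be tied to titles, so the difference of the cultures was fitted to 12 libraries as independent in place of a planned pairing.

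All 7 members were tested in each comparison, and for some comparisons only the count called is given. Some of the other family genes that were called or abundant are named, and up to 4 called genes of each list. Likeness was ranked by Pearson r over all genes tested. The members and lists were chosen with earlier results of these data known. Promoters are from RefSeq; 6 of 7 members were found in that table.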

Additional observations from a re-analysis of the deposited data

Results flagged for a closer look

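The effect of Elf4 KO on Klf6 in macrophages differed between times of LPS by a test of the difference itself. From 0 h to 16 h it changed by -0.69 log2 (limma, adjusted p = 0.00876), with KO below WT in 3 of 3 libraries at 16 h and overlapping groups at 0 h. From 4 h to 16 h it changed by -0.62 (adjusted p = 0.0187). Among the 7 members in the 4 KO-labelled naive libraries, the one group large enough for Dixon's test of an outlying sample, no library stood apart by that test.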

How the results depend on the processing

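There were 637 alternative values for single members other than those with 1 library left out. They include the unplanned fits without the libraries lowest in Fos. Among the 637, 595 kept direction and side of the threshold, 13 gained the call, 11 lost it and 18 changed sign. Of 1022 with 1 library left out, 915 kept both, 8 gained and 24 lost the call, and 75 changed sign; all 75 were called neither with nor without that library. Of the 18, 10 were called in neither fit. The other 8 came from median-ratio scaling of the macrophage times, which centres the median of all genes near 0: Klf4 0.81 and Klf13 0.27 (WT, 4 h against 0 h), Klf13 0.12 (WT, 16 h against 0 h), Klf13 -0.16 and Klf3 -0.42 (WT, 16 h against 4 h), and Klf13 0.65, 0.16 and -0.48 (KO, 4 h against 0 h, 16 h against 0 h and 16 h against 4 h). Those called in neither were, with that scaling, Klf6 -0.0043 (0 h KO against WT), Klf10 0.16 (WT, 16 h against 0 h), Klf3 -0.018 (KO effect, 16 h against 0 h), Klf6 -0.017 (naive KO-labelled), Klf2 0.031 and Klf7 0.024 (KO-labelled against W250S effect) and Klf4 -0.020 (non-pathogenic W250S), with pseudocount 0.1 Klf4 0.0028 (KO effect, 16 h against 4 h), and without the libraries lowest in Fos Klf3 -0.22 and Klf13 -0.085 (KO-labelled against W250S effect). Median-ratio scaling gave 4 members called in place of 7 in KO at 16 h against 0 h, 0 in place of 1 in naive W250S and 2 in place of 1 in non-pathogenic Th17 cells. With no filter on low values the count was 0 in naive W250S and 0 in non-pathogenic Th17 cells. Without the libraries lowest in Fos it was 1 in place of 0 in the KO-labelled naive set. That alternative was chosen after seeing the data and on values that run with Klf4, so the gained call is no support for a Klf4 difference.

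With the replicate number as a block 1 member in place of 0 was called in the KO-labelled naive set (Klf4, 2.09), where the block gives KO-labelled replicate 4 no partner, and 3 in place of 1 in non-pathogenic Th17 cells. These numbers do not pair the libraries (r = -0.0549 to 0.25 and -0.00695 to 0.246). In the paired naive W250S set the block changed no call. Member peaks called were 1 with DESeq2 and 1 with no filter, in place of 0. With 1 library left out, members called ran from 1 to 2 at 4 h in KO macrophages, 0 to 2 for the KO effect at 16 h against 4 h, 0 to 1 in each naive set and 0 to 2 in non-pathogenic Th17 cells, and member peaks from 0 to 4. Members whose sign changed with 1 library left out ran over these ranges. Macrophage 0 h KO against WT gave Klf2 -0.068 to 0.14, Klf6 -0.093 to 0.067, Klf4 -0.043 to 0.069, Klf3 -0.015 to 0.078, Klf10 -0.27 to 0.018. Macrophage 4 h KO against WT gave Klf2 -0.047 to 0.24. Macrophage WT 4 h against 0 h gave Klf4 -0.070 to 0.049. Macrophage WT 16 h against 4 h gave Klf3 -0.020 to 0.094. Macrophage KO 16 h against 4 h gave Klf13 -0.047 to 0.047, Klf3 -0.13 to 0.029. Macrophage KO effect 4 h against 0 h gave Klf2 -0.11 to 0.18, Klf6 -0.13 to 0.029. Macrophage KO effect 16 h against 0 h gave Klf4 -0.014 to 0.24. Macrophage KO effect 16 h against 4 h gave Klf4 -0.16 to 0.097, Klf7 -0.0017 to 0.30, Klf3 -0.16 to 0.0046. Naive KO-labelled against WT gave Klf10 -0.0089 to 0.10, Klf6 -0.16 to 0.19, Klf2 -0.021 to 0.27. Naive W250S against WT gave Klf10 -0.18 to 0.089. Naive KO-labelled effect against W250S effect gave Klf2 -0.18 to 0.11, Klf13 -0.070 to 0.087, Klf4 -0.35 to 0.86, Klf3 -0.18 to 0.15, Klf7 -0.19 to 0.040, Klf10 -0.038 to 0.23. Pathogenic Th17 W250S against WT gave Klf4 -0.11 to 0.064, Klf6 -0.045 to 0.12. Non-pathogenic Th17 W250S against WT gave Klf4 -0.055 to 0.064. W250S effect pathogenic against non-pathogenic gave Klf4 -0.11 to 0.060, Klf13 -0.0020 to 0.17, Klf2 -0.18 to 0.30, Klf6 -0.19 to 0.00081. Start peaks gave Klf13 -0.072 to 0.013, Klf2 -0.071 to 0.017. The cause was not tested for any of these. The planned count test on reads recovered from CPM was not run, since 79.7 to 95.1% of low values came out whole.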
